A study of Mus musculus with 12 samples.

Results

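The response of wild-type (WT) regulatory T cells (Treg cells) to 48 h of stimulation is described here gene by gene, over every gene with at least 1 RPKM in 3 or more of the 6 WT libraries. RPKM is a read count scaled to the length of a gene's exons and to the library's assigned reads. This rule took 10124 of the 24421 entries of the deposited expression table. The 2 groups were unstimulated WT Treg cells and WT Treg cells given IL-2 (200 U/ml) over plate-bound anti-CD3 and anti-CD28 antibody (5 µg/ml) for 48 h, with 3 libraries each. Both came from C57BL/6 mice aged 7 weeks. A test of whether the response differed with genotype used the matching 6 libraries of Foxp3CreBatffl/fl mice (KO), in which Cre driven from the Foxp3 locus deletes Batf, an AP-1 family transcription factor, in Foxp3-expressing cells. The labels do not say whether the unstimulated cells were taken straight after sorting or were cultured, so time in culture and stimulation cannot be told apart. They also do not say which libraries came from separate animals, so p-values measure only the spread between these libraries. That spread was taken over all 12 libraries, so the KO libraries also enter the SE and p-value of each WT change.

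Treg cells are CD4 T cells that restrain immune responses and depend on the transcription factor Foxp3. Antibodies to CD3 engage the T cell receptor complex, antibodies to CD28 its costimulatory partner, and IL-2 acts through STAT5. Together these signals take a resting T cell out of quiescence, through growth in size and a shift in metabolism, into division.

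Between 23154208 and 26860948 reads were assigned to genes in the unstimulated WT libraries and between 26153778 and 28586953 in the stimulated ones, and the 10124 genes held 99.4% or more of them. Of the 8 markers set down for Treg cells (Foxp3, Il2ra, Ctla4, Ikzf2, Cd4, Cd3d, Cd3e and Cd3g), all were present in every library, the lowest value being 19.002 RPKM for Ikzf2. The libraries numbered 3 held almost no Y-linked RNA in either state, whereas those numbered 1 and 2 did, so the samples of a group were not of the same sex. On the first principal component, which took 94.79% of the variance, the states stood apart, from -56.581 to -54.547 without and from 54.395 to 57.44 with stimulation. Stimulated library 1 lay at 12.884 and stimulated library 3 at -14.327 on the second component, which took 2.039%. Among genes of at least 10 RPKM, the median coefficient of variation between libraries was 5.22% without and 7.24% with stimulation.

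Most of the transcriptome moved. By limma, a linear model with moderated variances, 4563 of the 10124 genes were called higher and 3590 lower after stimulation at an adjusted p under 0.05, and 1971 were not called. Over all 10406 genes tested in the series the shares were 44.5% higher and 35.4% lower. Because a call alone was this common, size matters more: 1797 genes rose and 1443 fell by at least 1 on the log2 scale, against 17.3% and 14.1% of all genes tested. Another 2018 called genes moved by less than 0.5. The median log2 change was 0.12, with quartiles at -0.55 and 0.76. All log2 changes below are limma estimates on log2(RPKM + 1) with their SE, which understate the change of genes with low values. RPKM means are given with the SD over n = 3 libraries. Counts by gene list cover the listed genes that met the entry rule, which left out at most 5 genes of any of the 42 lists of gene programmes. A gene can meet it through the state in which it is high, so these counts describe the lists and support nothing more.

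The number of genes in use changed little while their balance did. At 1 RPKM or more in all 6 libraries were 8865 of the genes. Another 301 were under 1 RPKM in every unstimulated library and at or above it in every stimulated one, and 451 showed the opposite. Genes next to the entry limit were Pnp2, Adssl1 and Zfp329, just inside at 1.00 RPKM in the library with the third highest value, and Slc35d3, Lrsam1 and Efcab11, just outside at 0.998 there. The 10 most abundant genes took 8.25% to 8.48% of reads before and 5.79% to 6.03% after stimulation, and the 100 most abundant 28.6% to 29.0% and 21.1% to 21.7%. RPKM is a share of each library, so the fall of a few very abundant genes raises the rest. When libraries were scaled instead by the median ratio over genes, the median log2 change moved to 0.003, and 1536 genes rose and 1647 fell by at least 1. Directions below are those of the RPKM scale, and the sign of values within about 0.1 of 0 depends on this choice. Calls depend on it further out. Under median-ratio scaling those on Batf (0.31) and Rps2 (0.20) were lost and that on Rps26 (-0.35) was gained. In bulk RNA a change in the number of cells of a kind and a change in RNA per cell cannot be told apart.

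**Figure D1:**
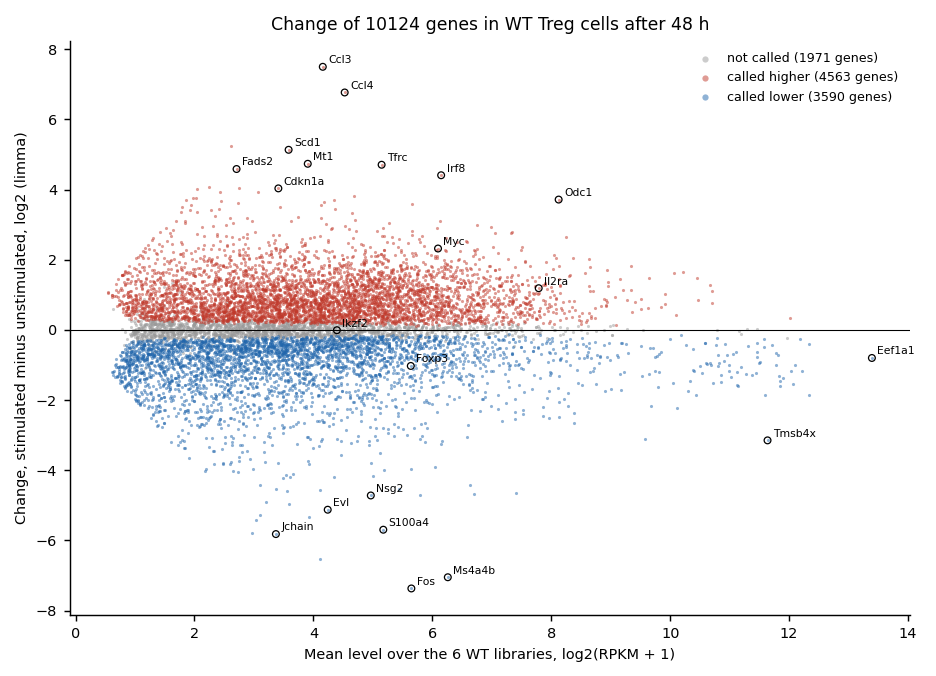
Each point is 1 of the 10124 genes, placed by its mean level over the 6 WT libraries (log2(RPKM + 1)) and its limma log2 change after 48 h. Red genes were called higher (4563), blue ones lower (3590) and grey ones neither (1971). The labelled abundant genes Tmsb4x and Eef1a1, on the right, lie below 0, and Ccl3 and Ccl4 have the largest rises.

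The leading changes were ranked among called genes reaching 10 RPKM with no overlap between states, leaving out predicted genes and small nucleolar RNAs. This left out the small nucleolar RNA Snord42b (5.24) and the predicted gene Gm4956 (-6.53), each of which would have taken the third place. Of the 12 largest rises the first pair were Ccl3 and Ccl4, neighbouring chemokine genes whose products attract leukocytes. Ccl3 (chromosome 11, 83647843 to 83649378, minus strand, mm10) had 0.236, 0.492 and 0.268 RPKM in the unstimulated libraries and 244, 217 and 257 in the stimulated ones, a log2 change of 7.50 ± 0.16. Ccl4 went from 0.903, 0.851 and 2.05 to 276, 229 and 218 RPKM (6.77 ± 0.23). All 3 stimulated libraries were far above all 3 unstimulated ones for both genes. Mouse Ccl3 and Ccl4 resemble other genes of their cluster, and the sources used here do not say how reads matching several genes were counted.

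A pair of lipid desaturases was among them. Scd1 (chromosome 19, 44394450 to 44407709, minus strand), which makes monounsaturated fatty acids, had 1.24, 1.11 and 0.753 RPKM without and 59.8, 80.2 and 71.6 with stimulation (5.13 ± 0.27). Fads2, which desaturates polyunsaturated fatty acids, went from 0.296, 0.458 and 0.253 to 26.7, 36.6 and 30.4 RPKM (4.59 ± 0.13). Neither gene had overlapping groups, which was a condition of the ranking. Metal handling was represented by Tfrc, the transferrin receptor that brings iron into cells, and Mt1, a zinc-binding metallothionein. Tfrc (chromosome 16, 32608896 to 32632794, plus strand) was at 6.49, 6.36 and 5.04 RPKM before and 188, 179.9 and 172 after (4.71 ± 0.12), 30.2 times the unstimulated mean. Mt1 was at 1.24, 3.27 and 1.56 before and 72.0, 73.6 and 83.8 after (4.74 ± 0.24), and its paralog Mt2 rose from 0.803, 0.466 and 1.60 to 21.5, 26.0 and 20.1 RPKM. The short metallothionein genes are much alike, so the split of reads among them is uncertain.

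Irf8, a transcription factor of the interferon regulatory family best known from myeloid and B cells, already had RNA at rest and rose 22.7 times. Its values were 14.03, 14.996 and 14.2 RPKM unstimulated and 322, 358 and 299.9 stimulated (4.41 ± 0.09; chromosome 8, 120736358 to 120756692, plus strand). Cdkn1a, which encodes the cyclin-dependent kinase inhibitor p21, went from 1.43, 2.64 and 1.05 to 41.4, 43.3 and 41.5 RPKM (4.03 ± 0.17). Both rises left wide gaps between the groups. The other 4 were Cystm1 (4.07 ± 0.21), the beta-tubulin gene Tubb6 (4.05 ± 0.16), the retinoic acid-binding protein gene Crabp2 (4.004 ± 0.18) and the urokinase receptor gene Plaur (3.93 ± 0.23). Each of these 4 had a mean under 1 RPKM at rest and between 15.6 and 26.5 RPKM after stimulation. Plaur was the most uneven, at 20.02, 29.3 and 13.3 RPKM in the stimulated libraries. Among the 12 rises the highest adjusted p was 2.36e-09 (limma, Plaur).

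The largest fall in log2 change was that of Fos (chromosome 12, 85473901 to 85477270, plus strand), the immediate early AP-1 gene. It stood at 685, 630.3 and 616 RPKM in unstimulated and 3.12, 2.71 and 2.87 in stimulated libraries, a log2 change of -7.37 ± 0.12 and a 222-fold lower mean. Ms4a4b, a membrane protein of resting T cells, went from 813, 911 and 923 to 5.05, 5.30 and 6.76 RPKM (-7.05 ± 0.16). Its paralog Ms4a4c went from 47.3, 53.1 and 57.1 to 0.466, 0.191 and 0.467 (-5.28 ± 0.17), with reads between the paralogs uncertain. In these 3 genes every unstimulated library was over 40 RPKM and every stimulated one under 7.

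S100a4, a calcium-binding protein gene, was at 291, 259 and 229.8 RPKM unstimulated and 5.52, 3.45 and 3.36 stimulated (-5.69 ± 0.14). Evl, an actin regulator of the Ena/VASP family, was at 116, 112 and 105 and 1.83, 1.77 and 3.19 RPKM (-5.12 ± 0.14). Cd7, a T and NK cell surface receptor, was at 56.7, 44.2 and 57.5 and 0.294, 0.106 and 0.370 (-5.42 ± 0.12). All 3 lost nearly all of their RNA. Art2b, an ADP-ribosyltransferase of the T cell surface (-5.32 ± 0.18), Hsd11b1, which regenerates active glucocorticoid (-4.96 ± 0.15), and Nsg2, known from neuronal vesicles (-4.72 ± 0.09), fell from means of 95.03, 65.9 and 159 RPKM. The interferon-related Ifit1bl1 (-5.79 ± 0.15) and Pyhin1 (-4.91 ± 0.13) fell from 57.5 and 49.5 RPKM to 0.0549 and 0.685. By the ratio of means Ifit1bl1 fell further than Fos, to a 1047-fold lower mean.

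Jchain, which joins secreted IgM and IgA and marks plasma cells, was also among the 12 falls, at 70.5, 61.0 and 104 RPKM before and 0.146, 0.436 and 0.582 after (-5.82 ± 0.19). Most other markers of cells other than Treg cells fell too. The 12 B and plasma cell markers, Jchain among them, summed to between 103 and 147 RPKM without stimulation and between 6.74 and 8.89 with it. Jchain and Cd79b were the largest parts without stimulation, Cd79b at 27.2, 25.7 and 26.3 and then 2.20, 1.65 and 2.10 RPKM. Of the other plasma cell markers, Tnfrsf17 was at 0.183, 0.585 and 1.62 RPKM and then 0, and Sdc1 rose from a mean of 1.07 to 3.10. The 20 myeloid and dendritic markers went from between 47.0 and 75.5 to between 4.39 and 6.66 RPKM, and C1qa, C1qb and C1qc were at 0 in all stimulated libraries. The 8 NK cell markers went from between 8.67 and 11.8 to between 0.214 and 0.497 RPKM, with Klra4 and Klra8 at 0 throughout. The 8 erythroid and platelet markers went from between 5.10 and 11.2 to between 0.0707 and 0.174 RPKM, with all 4 globin genes at 0 throughout. The 2 CD8 genes summed to between 15.2 and 16.9 and then 4.19 and 5.84 RPKM. Nearly all of this was Cd8b1, at 16.5, 16.3 and 15.1 and then 3.83, 5.62 and 4.59 RPKM. Cd8a was at 0.345, 0.469 and 0.176 and then 0.354, 0.223 and 0.0894. Among those of these 5 lists that entered the 10124 genes, mostly through their unstimulated values, Sdc1 was called higher (0.98), Cd68 was not called, and the others were lower. The 9 stromal and epithelial markers went from between 41.9 and 42.9 to between 16.8 and 19.8 RPKM, with Pecam1 lower (-2.39), while Epcam (0.66) and Pdpn (1.44) rose. The part of these other cells in the falls of Jchain, Cd86, Ctss or any other gene they share with Treg cells was not tested.

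**Figure D2:**
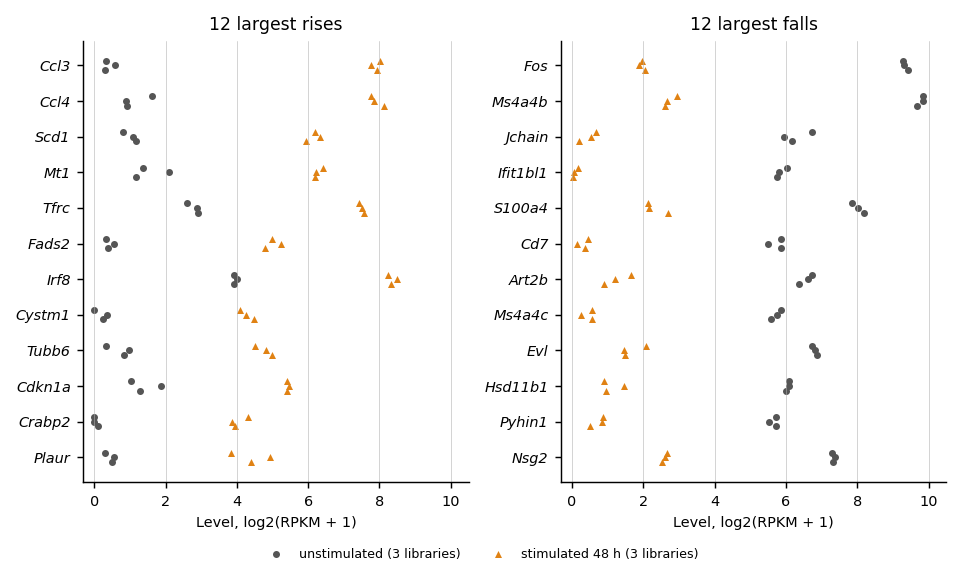
Levels (log2(RPKM + 1)) of the 12 largest rises (left) and falls (right) in each of the 3 unstimulated (grey circles) and 3 stimulated (orange triangles) WT libraries. The 24 genes were chosen among those without overlap between states. Ccl3 and Fos show the widest gaps, at log2 changes of 7.50 and -7.37.

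Genes that define Treg cells moved in both directions. Of 25 Treg core genes 9 rose and 12 fell, with a median log2 change of -0.20. Foxp3 (chromosome X, 7579676 to 7595243, plus strand) was at 74.8, 70.8 and 64.9 RPKM unstimulated and 32.8, 31.9 and 37.1 stimulated, a log2 change of -1.03 ± 0.09 (adjusted p = 1.27e-07, limma). Il2ra, the high-affinity IL-2 receptor chain, did the opposite, at 146, 146 and 144 and then 323, 315 and 362 RPKM (1.19 ± 0.08). Neither gene's groups overlapped. Ikzf2, which encodes Helios, stayed near its level with 19.4, 20.3 and 20.5 RPKM before and 19.002, 19.5 and 21.5 after, overlapping groups and a change of -0.01 with a 95% interval from -0.26 to 0.25. Ctla4, the inhibitory receptor that competes with CD28, was at 130.1, 164 and 115 and 189.5, 251 and 198 RPKM (0.64 ± 0.15, adjusted p = 0.00131). The lowest stimulated library exceeded the highest unstimulated one.

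The largest falls in this list were Nrp1, the neuropilin of thymus-derived Treg cells (51.4 ± 2.43 to 4.85 ± 0.545 RPKM, -3.17), Cd83 (75.8 ± 2.86 to 8.37 ± 0.655, -3.04) and Itgae, the epithelium-binding integrin chain CD103 (44.2 ± 1.55 to 6.34 ± 0.821, -2.63 ± 0.49). The SE of Itgae takes in its uneven KO libraries, at 13.1 ± 14.4 RPKM unstimulated. The call on Itgae was lost when the WT libraries numbered 3 were the only ones kept (-2.52). Il10, the suppressive cytokine, rose from 6.07, 8.66 and 6.29 to 48.6, 38.6 and 46.6 RPKM (2.52 ± 0.20). The ectonucleotidases Nt5e (-1.31) and Entpd1 (-1.16) and the folate receptor gene Izumo1r (-1.16) fell, whereas Tnfrsf4 (OX40, 1.47), Tnfrsf18 (GITR, 0.47) and Lrrc32, which docks latent TGF-beta (0.34), rose.

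The 30 genes of effector and tissue Treg cells split 11 higher and 15 lower (median -0.25). Ccr8, a chemokine receptor of effector Treg cells, rose from 62.9, 66.2 and 53.3 to 423, 427 and 402 RPKM (2.76 ± 0.10). Irf4, a partner of Batf at AP-1 composite sites, rose from 19.3, 17.6 and 19.8 to 128, 118 and 137 (2.69 ± 0.10). In contrast Ccr2 fell from 25.7, 19.7 and 21.2 to 1.21, 0.746 and 1.33 RPKM (-3.47 ± 0.13). Klrg1 (-2.58), Cxcr3 (-1.93) and Icos (-0.72) fell, Tnfrsf8 (1.86), Nfil3 (1.68), Tnfrsf9 (1.251) and Prdm1 (1.17) rose, and for Il1rl1 the change was -0.24 with an adjusted p of 0.534. Batf itself was at 103, 93.3 and 90.03 RPKM and then 134, 125 and 128 (0.43 ± 0.17, adjusted p = 0.0303). The groups did not overlap, but the call was lost under median-ratio scaling (0.31), without the filter on low values, and when any single WT library except unstimulated library 1 was left out (0.39 to 0.45).

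Components of T cell receptor signalling mostly fell: 25 of 30 were lower and 3 higher, with a median of -0.73 against 0.12 over all genes. The receptor's own chains were among them. Cd3g went from 893, 803 and 809 to 136, 118 and 140.2 RPKM (-2.66 ± 0.07), Cd3e from 313, 245 and 266 to 88.2, 76.1 and 99.1 (-1.64 ± 0.11), and Cd4, the coreceptor, from 270.3, 245 and 257 to 86.7, 89.7 and 102 (-1.46 ± 0.08). Every stimulated library was below every unstimulated one. Dgka, which removes the second messenger diacylglycerol, fell by 2.68 on the log2 scale, and the adaptors Trat1 (-2.64) and Sit1 (-2.31) fell with it. Kinases nearer the receptor moved less, with Lck at -0.75 and Zap70 at -0.40. The 3 that rose were Malt1 (0.93), a protease on the path to NF-kappaB, Cd6 (0.25) and Lat (0.22).

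Immediate early and receptor-strength genes moved both ways, 9 of 28 higher and 13 lower (median -0.04). Besides Fos, the phosphatase gene Dusp1 fell from 266, 264 and 237 to 17.0, 16.4 and 14.6 RPKM (-3.91 ± 0.11). The AP-1 genes Fosb (-2.67) and Jun (-1.79), the mRNA decay factor Zfp36 (-3.05) and Cd69 (-1.53) also fell. The nuclear receptors Nr4a1 (1.82), Nr4a2 (2.32) and Nr4a3 (2.81) and Egr2 (1.64) rose, as did Fosl2 (2.44). Dusp4, another phosphatase of MAP kinases, went from 23.5, 22.2 and 23.2 to 203, 222 and 192 RPKM (3.11 ± 0.09), and Atf3 from 0.358, 0.240 and 0.129 to 9.37, 10.1 and 8.55 (3.06 ± 0.12). Klf6, Ier2, Egr3, Jund, Dusp10 and Dusp2 were within 0.1 of 0 and not called.

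Among 26 costimulatory and inhibitory receptors 7 rose and 13 fell (median -0.42). The nectin-binding pair Cd96 (163 ± 10.4 to 17.96 ± 1.55 RPKM, -3.11) and Cd226 (32.1 ± 1.14 to 4.43 ± 1.05, -2.62) fell, while Tigit, the third receptor of these ligands, had a change of 0.16 (adjusted p = 0.596). Cd86, a CD28 ligand also made by B and myeloid cells, fell from 16.6, 20.3 and 16.6 to 0.708, 1.40 and 1.10 RPKM (-3.19 ± 0.17), and Cd101 fell by 2.59. Cd28 itself changed by 0.13 (adjusted p = 0.329). The rises were 4 members of the TNF receptor family, Tnfrsf4, Tnfrsf8, Tnfrsf9 and Tnfrsf18, with Ctla4, Pdcd1 (0.49) and Cd200 (1.08).

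Cytokines and chemokines had a median change of 1.33, with 20 of the 33 genes (of 38 listed) higher and 10 lower. Those of effector T cells rose from low levels: Ifng, the type 1 cytokine, went from 6.26, 5.19 and 6.32 to 82.0, 113 and 94.2 RPKM (3.81 ± 0.27), and Il17a from 0.0318, 0.0738 and 0.109 to 10.7, 13.2 and 17.5 (3.76 ± 0.16). Il3 was listed at 0 in every unstimulated library and at 9.95, 11.9 and 14.8 RPKM in the stimulated ones. The groups were separate for all 3. Lta, which encodes lymphotoxin alpha, was already present at rest and went from 61.0 ± 7.66 to 427 ± 50.3 RPKM (2.79), and Il2 reached 6.86 ± 0.606 RPKM from 0.0546. Among the falls, Ccl5, a chemokine of memory and effector cells, went from 18.8, 23.9 and 22.7 to 0.792, 0.414 and 0.791 RPKM (-3.78 ± 0.30). Cxcl10 (-2.30), Il16 (-2.19) and Ltb (-1.74) fell too.

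Receptors for cytokines went the other way, 19 of 27 lower and 5 higher with a median of -0.997. Il7r, the receptor of the survival factor IL-7, fell from 23.4, 22.6 and 28.7 to 4.67, 4.56 and 6.58 RPKM (-2.05 ± 0.20). Il6ra (-2.30), Il27ra (-2.06), Tgfbr2 (-2.04) and the common gamma chain gene Il2rg (-1.57) fell as well. The exceptions were Il2ra, Il15ra (0.66), Il21r (0.33) and both IL-12 receptor chains, Il12rb1 (1.61) and Il12rb2, which went from 0.619, 0.381 and 0.302 to 5.92, 7.34 and 8.42 RPKM (2.51 ± 0.17). Il2rb had a change of -0.15 (adjusted p = 0.0976).

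JAK, STAT and SOCS genes split 11 higher and 10 lower of 22, with a median of 0.08 that turned to -0.04 under median-ratio scaling. Those that fell included Jak1 (117 ± 2.50 to 27.6 ± 0.997 RPKM, -2.05) and Stat4 (29.5 ± 1.30 to 5.74 ± 1.15, -2.19). The rises included feedback inhibitors of cytokine signalling, with Socs2 at 25.3, 24.8 and 25.1 and then 72.3, 74.0 and 72.2 RPKM (1.502 ± 0.12), Socs1 at 1.43, Cish at 0.86 and, outside that group, the kinase gene Pim3 at 2.26, while Socs3 fell (-1.06). Stat5a rose by 0.43 and Stat5b fell by 0.29.

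Genes of quiescence and of leaving tissue for blood had the lowest median of the 42 lists, -1.98, with 23 of 26 lower and 1 higher. Klf2, a transcription factor that drives S1pr1, was at 118, 114 and 113 RPKM and then 7.52, 6.34 and 8.69 (-3.78 ± 0.11). S1pr1, the receptor for egress, was at 166, 179 and 184 and 15.1, 17.4 and 23.3 (-3.20 ± 0.13). Both genes had separate groups. Txnip, which restrains glucose uptake (207 ± 21.2 to 8.07 ± 1.43 RPKM, -4.53), and Pik3ip1, an inhibitor of PI3 kinase (24.2 ± 0.5003 to 0.555 ± 0.0786, -4.02), fell too. Tcf7 (-1.98), Lef1 (-1.35) and Foxo1 (-1.12) fell, Bach2 rose (1.44), and Ccr7 was not called (0.02, adjusted p = 0.879).

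Of 31 chemokine receptors, integrins and other trafficking genes 23 fell and 4 rose (median -1.39). Itga4, the alpha chain shared by gut and brain homing integrins, went from 24.8, 28.6 and 33.4 to 1.17, 1.93 and 2.07 RPKM (-3.47 ± 0.15), and its gut partner Itgb7 changed by -2.60. Cxcr4, Cxcr5, Ccr9 and Itgal fell by 1.65, 1.57, 2.02 and 1.70. The 4 that rose were Ccr8, Itgav (1.57), Itgb8 (1.18), whose product with Itgav activates TGF-beta, and Cd44 (0.46).

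Lineage transcription factors were 11 higher and 12 lower of 28, with a median of -0.11 that turned to 0.06 when at least 5 RPKM were required. Tbx21, the type 1 factor T-bet, went from 4.54, 4.25 and 4.997 to 74.0, 72.5 and 70.4 RPKM (3.71 ± 0.10), with no overlap. Id3 (62.1 ± 3.93 to 7.84 ± 1.98 RPKM, -2.86), Ets1 (-2.29), Tox (-1.55) and Bcl6 (-1.45) fell, and Gata3 had a change of 0.06 (adjusted p = 0.776). In the NF-kappaB list 7 of 22 rose and 12 fell (median -0.22), led by falls of Nfkbiz (6.18 to 0.772 RPKM, -2.03) and the kinase gene Map3k14 (-1.65) and a rise of the inhibitor gene Nfkbib (1.46). The subunits Rel (0.65), Nfkb1 (0.61) and Nfkb2 (0.90) rose, Relb fell (-0.23), and Rela was not called (-0.09).

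The main survival genes moved oppositely. Bcl2 went from 18.8, 18.8 and 19.2 to 2.89, 3.42 and 4.35 RPKM (-2.14 ± 0.14), while Bcl2l1, which encodes Bcl-xL, went from 29.7, 30.7 and 27.6 to 93.2, 104 and 91.2 (1.68 ± 0.07). The death mediators Bcl2l11 (Bim, -1.94) and Fas (-1.795) fell, and Bax (1.24) and Bak1 (1.15) rose. The list as a whole held 7 rises and 11 falls of 25 (median -0.09). Among 15 granzymes and serpins 4 rose and 9 fell (median -0.71): Gzmb rose (18.4 ± 3.33 to 43.7 ± 3.06 RPKM, 1.22), Gzma fell (12.8 ± 2.60 to 1.19 ± 0.709, -2.69), and Serpine2, a protease inhibitor, went from 0.924, 1.60 and 0.990 to 23.1, 49.9 and 26.9 RPKM (3.92 ± 0.38).

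Genes of the G1 phase of the cell cycle mostly rose, 19 of 28 higher and 7 lower (median 1.13). After Cdkn1a, the E-type cyclins that trigger S phase rose most, Ccne1 from 9.65, 6.76 and 7.30 to 70.2, 78.6 and 78.8 RPKM (3.12 ± 0.11) and Ccne2 from 3.40, 2.84 and 3.51 to 26.6, 37.1 and 44.0 (3.09 ± 0.16). E2f3 went from 1.61, 1.89 and 1.68 to 10.9, 11.3 and 10.8 (2.14 ± 0.08). The pocket protein genes Rb1 (-1.003) and Rbl2 (-1.77) and the inhibitors Cdkn1b (-1.251) and Cdkn1c (-1.03) fell, in contrast to Cdkn1a and Cdkn2a (1.10), which rose.

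DNA replication genes rose almost without exception: 39 of 41 were called higher, with a median of 1.48. Orc1, a subunit of the origin recognition complex, went from 1.805, 1.56 and 2.28 to 16.1, 19.5 and 18.2 RPKM (2.72 ± 0.13). Cdc6, which loads the MCM helicase, went from 4.85, 3.32 and 3.58 to 22.2, 23.2 and 24.0 (2.31 ± 0.11), and Cdc45, which activates it, from 13.8, 10.9 and 12.9 to 60.4, 62.9 and 62.1 (2.22 ± 0.08). Chaf1a, of the chromatin assembly factor, rose from 4.19 ± 0.433 to 25.8 ± 0.515 RPKM. The 2 members not called were Rpa1 (0.13) and Gins3 (0.24).

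Mitosis and cytokinesis genes had the highest median of the 42 lists, 1.70, with 44 of 46 higher. Plk1, a mitotic kinase, went from 13.8, 11.3 and 12.3 to 105, 108 and 118 RPKM (3.05 ± 0.09). Cdc20, the activator of the anaphase-promoting complex, went from 19.9, 14.96 and 19.997 to 151, 138 and 114 (2.81 ± 0.13), and Ccnb1, cyclin B1, from 11.2, 13.8 and 14.6 to 89.0, 87.3 and 91.4 (2.67 ± 0.09). Aurka rose from 11.7 ± 1.43 to 87.6 ± 2.93 RPKM. The proliferation marker Mki67 was at 2.49, 1.81 and 2.04 RPKM before and 5.47, 4.95 and 6.67 after (1.10 ± 0.20), a change below the median of its list. The condensin gene Smc4 fell (-1.32) and Pttg1 was not called (-0.23).

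RefSeq promoter windows (GRCm38.p6, from 250 bases before to 50 after an annotated start) matched 7798 of the 10124 genes by symbol. In them E2F letters (TTTGGCGC, TTTGGCGG or TTTCCCGC, either strand) occurred in 17 of 39 windows of replication genes (43.6%), 2 of 41 of mitosis genes (4.88%), 4.14% of windows of the 7798 of 10124 genes that had one and 2.10% of all 32851 windows. The CHR letters bound by the DREAM and MuvB complexes (TTTGAA, either strand) were in 5 of 39 replication windows (12.8%), 32 of 41 mitosis windows (78.0%), 11.97% of windows of these 7798 genes and 17.9% of all windows. Stretches are shown for 3 genes of each list that rose and had a match before the start. Matches are in capitals, read 5′ to 3′ on the gene's strand. The choice went by size of rise but did not draw on every chromosome, so genes with larger rises may be missing. Such a match describes the letters only and does not show a bound site.
Chaf1a: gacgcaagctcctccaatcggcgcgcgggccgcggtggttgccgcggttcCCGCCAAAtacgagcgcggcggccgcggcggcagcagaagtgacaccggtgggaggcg
Cdc6: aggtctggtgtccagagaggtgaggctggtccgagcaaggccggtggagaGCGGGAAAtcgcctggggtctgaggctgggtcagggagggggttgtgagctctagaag
Dtl: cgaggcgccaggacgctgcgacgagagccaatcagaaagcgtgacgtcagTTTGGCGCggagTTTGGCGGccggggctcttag
Cdc20: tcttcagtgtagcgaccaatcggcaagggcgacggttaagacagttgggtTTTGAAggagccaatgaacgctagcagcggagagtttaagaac
Ube2c: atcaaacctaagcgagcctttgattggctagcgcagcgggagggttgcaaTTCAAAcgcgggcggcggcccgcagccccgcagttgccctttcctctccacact
Kif2c: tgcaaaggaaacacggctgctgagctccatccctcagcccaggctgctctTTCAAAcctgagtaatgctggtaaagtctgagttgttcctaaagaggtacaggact

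These stretches lie at chr17:56040322-56040429 on the plus strand (Chaf1a), chr11:98907963-98908070 on the plus strand (Cdc6) and chr1:191575520-191575602 on the minus strand (Dtl) for the E2F letters. The CHR letters lie at chr4:118437319-118437411 on the minus strand (Cdc20), chr2:164769850-164769953 on the plus strand (Ube2c) and chr4:117178820-117178925 on the minus strand (Kif2c). The first capital stood 44, 138 and 8 bases before the RefSeq start in Chaf1a, Cdc6 and Dtl, and 18, 29 and 103 in Cdc20, Ube2c and Kif2c. The stretches of Cdc6 and Kif2c lie downstream of the first base of the deposited gene models, which begin earlier than the RefSeq starts used here. Dtl, a ubiquitin ligase adaptor of S phase, held 2 matches. Its level rose from 5.55, 5.51 and 5.61 to 19.5, 22.7 and 24.9 RPKM (1.83 ± 0.11). Ube2c, which works with Cdc20 on the anaphase-promoting complex, rose from 39.2 ± 4.62 to 226 ± 12.2 RPKM, and the spindle motor Kif2c from 3.48 ± 0.380 to 20.4 ± 0.104.

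In the DNA methylation and polycomb list 9 of 19 rose and 4 fell (median 0.16, against 0.12 over all 10124 genes). Hells (18.8 ± 1.27 to 87.3 ± 14.95 RPKM, 2.14) and Uhrf1 (1.67), both helpers of DNA methylation, and Dnmt1 (0.95) rose. The polycomb methyltransferases exchanged: Ezh2 went from 25.5, 22.9 and 24.1 to 76.9, 85.1 and 86.7 RPKM (1.74 ± 0.08) and Ezh1, its form in resting cells, from 14.97, 14.2 and 15.1 to 3.63, 3.53 and 3.38 (-1.804 ± 0.08). For both genes the states were separate.

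Growth genes rose on a broad front. Myc went from 29.6, 29.8 and 29.4 to 131, 167 and 160.2 RPKM (2.32 ± 0.10), and Odc1, the rate-limiting enzyme of polyamine synthesis and a Myc target, from 73.5, 77.6 and 77.0 to 978, 1099 and 958 (3.71 ± 0.07). Srm, which makes spermidine, went from 40.9, 33.7 and 37.6 to 311, 324 and 272 (2.98 ± 0.11). The antagonist Mxd4 fell from 55.4, 48.4 and 46.4 to 4.22, 3.73 and 3.83 RPKM (-3.37 ± 0.11). Over the list 12 of 18 rose and 3 fell (median 0.74), and its share of reads went from 0.256 ± 0.00656% to 0.885 ± 0.0314%. The E-box letters CACGTG stood in 9 of 23 promoter windows of this list (39.1%), 9 of 49 of ribosome biogenesis (18.4%), 7 of 28 of cholesterol genes, 11.7% of windows of all genes that rose by at least 1, 10.46% of windows of the 7798 genes and 7.15% of all windows. Eif5a, the translation factor that carries a polyamine-derived residue (674 ± 32.05 to 2108 ± 36.5 RPKM, 1.65), is shown at chr11:69920753-69920858 on the minus strand, with the E-box in capitals 178 bases before a RefSeq start and inside the deposited gene model.
Eif5a: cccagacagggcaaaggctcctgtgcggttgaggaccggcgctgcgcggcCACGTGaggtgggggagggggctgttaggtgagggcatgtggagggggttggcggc

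Ribosome assembly and the ribosome's own proteins moved apart. Of 45 ribosome biogenesis and RNA polymerase I genes 43 rose and the other 2 were not called (median 1.32), led by the nucleolar genes Gnl3 (10.1 ± 0.355 to 56.5 ± 4.82 RPKM, 2.37) and Gar1 (2.12). Of 77 cytosolic ribosomal protein genes 67 fell and 4 rose (median -0.93). The 77 genes together took 15.8 ± 0.230% of reads without and 8.87 ± 0.748% with stimulation. Rps24 went from 5987, 5907 and 5825 to 1682, 1596 and 1596 RPKM (-1.86 ± 0.06), and Rps15a from 589, 610.0 and 569.5 to 159.7, 146 and 144 (-1.97 ± 0.07). Rpl39 was the largest fall at 1999.8, 1685 and 1537 and then 558, 322 and 311 RPKM (-2.18 ± 0.21). Rpl34 rose from a low level, 6.11, 6.27 and 8.24 RPKM, to 55.5, 48.04 and 34.3. Ribosomal protein genes have many processed pseudogenes, so reads that match several places may be missing from such genes.

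All 20 cytosolic aminoacyl-tRNA synthetases rose (median 1.17), led by Iars (17.5 ± 1.31 to 74.1 ± 3.59 RPKM, 2.02) and Gars (1.87). Initiation factors were 27 higher and 6 lower of 36 (median 0.89). Eif4ebp1, which encodes the mTORC1-controlled repressor of cap-dependent initiation, rose most, from 11.1, 10.7 and 10.54 to 63.6, 64.5 and 43.6 RPKM (2.28 ± 0.17), and Eif4g1 changed by 1.505. The falls were Eif4a2 (-1.22) and 5 subunits of eIF3. Mitochondrial ribosomal proteins, unlike the cytosolic ones, rose in 62 of 77 cases and fell in 2 (median 0.76), with Mrpl12 at 52.5, 58.3 and 54.7 and then 247, 238 and 225 RPKM (2.08 ± 0.06).

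**Figure D3:**
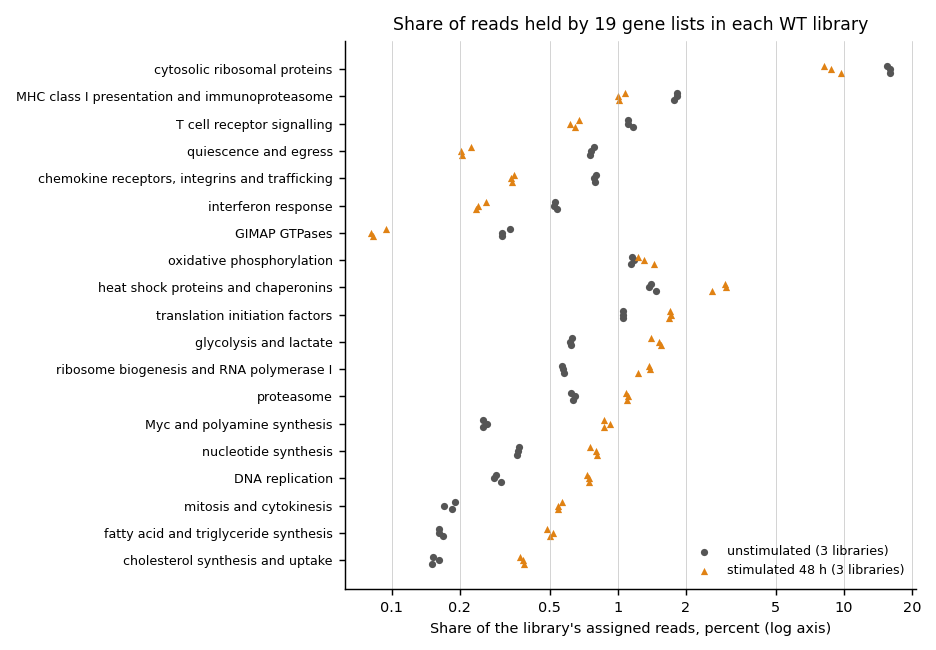
Share of each library's assigned reads (percent, log axis) held by 19 gene lists in the 3 unstimulated (grey circles) and 3 stimulated (orange triangles) WT libraries. Cytosolic ribosomal proteins fell from 15.8% to 8.87% of reads, and the polyamine and Myc list rose from 0.256% to 0.885%.

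Protein folding and turnover genes rose: 29 of 34 heat shock and chaperone genes (median 0.87; 3 fell) and 33 of 35 proteasome genes (median 0.82; 1 fell). The mitochondrial chaperones led, Hspd1 from 135, 114 and 112 to 688, 794 and 797 RPKM (2.65 ± 0.10) and Hspa9 from 85.8, 81.6 and 75.3 to 384, 407 and 393 (2.27 ± 0.07). The stress-induced pair Hspa1a (-3.20) and Hspa1b (-3.63), near-identical genes whose reads may be divided, fell instead, from 9.52 ± 2.61 and 23.02 ± 5.51 RPKM to under 1. The regulatory lid subunit gene Psmd3 rose from 58.9 ± 1.75 to 199.97 ± 9.95 RPKM (1.75). Lysosomal genes tended down, 16 of 28 lower and 9 higher (median -0.57), with Ctss, a cathepsin also abundant in antigen-presenting cells, at 517, 567 and 543 and then 89.6, 101 and 106 RPKM (-2.45 ± 0.07).

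Interferon response genes fell in 32 of 38 cases and rose in 5, with a median of -1.91. Isg15, a ubiquitin-like modifier, went from 51.6, 44.0 and 48.3 to 2.02, 1.94 and 1.43 RPKM (-4.13 ± 0.24), and Ifit3, which binds viral RNA complexes, from 18.8, 15.2 and 18.2 to 0.0574, 0.128 and 0.193 (-4.03 ± 0.22). Irf7 (38.6 ± 2.0002 to 1.85 ± 0.101 RPKM, -3.79), the amplifier of type I interferon, fell with them. Those that rose were Iigp1 (1.60), Irgm2 (0.69), Irgm1 (0.46), Bst2 (0.46) and Igtp (0.22), 4 of which encode immunity-related GTPases. Class I presentation genes fell in 12 of 17 and rose in 2 cases (median -0.37). B2m, the light chain of class I molecules, went from 6173, 6549 and 6413 to 1794, 1961 and 2682 RPKM (-1.59 ± 0.11), with stimulated library 3 above the other two. All 8 GIMAP genes, GTPases of lymphocyte survival that sit in 1 cluster on chromosome 6, fell (median -1.77), led by Gimap3 (400.2 ± 22.0 to 68.6 ± 5.03 RPKM, -2.53).

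Regulators of mRNA decay split 7 higher and 6 lower of 16 (median 0.10). Zfp36, which marks cytokine mRNAs for decay, fell from 302, 274 and 250.4 to 29.7, 30.2 and 37.5 RPKM (-3.05 ± 0.09), and the antiproliferative genes Btg1 (-1.98) and Btg2 (-1.82) fell with it. Rc3h1 (roquin-1, 0.81), Zfp36l2 (0.40) and the m6A reader Ythdf2 (1.12) rose.

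Genes of glucose use mostly rose: 17 of 25 glycolysis and lactate genes rose and 5 fell (median 1.15). Slc16a3, which exports lactate, went from 7.22, 6.13 and 7.35 to 89.9, 78.0 and 69.4 RPKM (3.34 ± 0.20). Hk2, the inducible hexokinase, went from 1.29, 1.07 and 0.815 to 12.1, 12.8 and 11.7 (2.69 ± 0.09), and Tpi1 from 80.8, 76.1 and 80.6 to 421, 435 and 391.7 (2.38 ± 0.13). The glucose transporters were unlike: Slc2a1 rose (18.3 ± 0.943 to 75.2 ± 3.35 RPKM, 1.98) and Slc2a3 fell (31.6 ± 1.17 to 11.3 ± 0.728, -1.40). Lactate dehydrogenase likewise changed chain, with Ldha rising (1.63) and Ldhb falling (-1.246). In the pentose phosphate pathway 7 of 9 rose, led by the oxidative enzyme Pgd (1.34), and Taldo1 (-1.01) and Prps2 (-0.85) fell.

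Mitochondrial pathways moved less. TCA cycle and pyruvate entry genes were 19 higher and 4 lower of 31 (median 0.41). Got1, the cytosolic aspartate aminotransferase, went from 24.7, 22.8 and 25.6 to 146, 137 and 116 RPKM (2.40 ± 0.10), and Gls2, a glutaminase, from 0.299, 0.364 and 0.204 to 13.6, 13.6 and 9.70 (3.36 ± 0.14). Oxidative phosphorylation genes split 21 higher and 16 lower of 56, with a median of 0.08 that turned to -0.05 under median-ratio scaling. Its largest rises were both cytochrome genes Cyc1 (92.9 ± 4.80 to 282 ± 49.8 RPKM, 1.58) and Cycs (1.498) and the acyl carrier Ndufab1 (1.55). The falls included Ndufa1 (-1.38), Uqcrh (-1.27) and Cox6c (-1.198).

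Lipid genes went in opposite directions by pathway. Fatty acid oxidation fell in 16 of 22 cases and rose in 2 (median -0.48), with Cpt1a, the gate of mitochondrial import, at 16.8, 15.2 and 18.7 and then 7.10, 6.54 and 6.37 RPKM (-1.22 ± 0.17). Fatty acid and triglyceride synthesis rose in 18 of 22 cases and fell in 4 (median 1.04). After Scd1 and Fads2 came Scd2, from 46.3, 47.7 and 40.8 to 352, 362 and 339 RPKM (2.94 ± 0.10), then Acaca (2.11) and Fasn (2.10), which make the carbon chain. Acss2, which makes acetyl-CoA from acetate, fell from 17.6, 21.8 and 21.2 to 3.51, 4.15 and 2.96 RPKM (-2.23 ± 0.14).

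Cholesterol genes rose in 23 of 30 cases and fell in 3 (median 1.30). Idi1 went from 5.09, 5.32 and 5.14 to 33.4, 39.6 and 38.04 RPKM (2.62 ± 0.11), and Cyp51, the lanosterol demethylase, from 17.6, 17.7 and 15.1 to 98.5, 109 and 109 (2.58 ± 0.12). The regulator Srebf2 (0.96) rose, and the 3 falls were the ubiquitin ligase gene Mylip (-1.71) and the exporters Abcg1 (-0.79) and Abca1 (-0.41). Sterol letters (TCACNCCAC, either strand) stood in 1 of 28 promoter windows of this list (3.57%) and 1.24% of all windows.

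Amino acid and nucleotide supply rose as well. Of 19 integrated stress, serine and one-carbon genes 16 rose and 2 fell (median 1.58): Asns, asparagine synthetase, went from 6.53, 4.55 and 5.56 to 50.2, 59.4 and 45.8 RPKM (3.01 ± 0.24), and Cth, the last enzyme of cysteine synthesis, from 0.207, 0 and 0 to 12.1, 9.75 and 8.51 (3.37 ± 0.15). The serine enzymes Shmt1 (2.48), Shmt2 (2.38) and Psat1 (1.804) rose with Atf4 (1.61), whereas its death-linked target Ddit3 fell from 14.4, 16.2 and 16.2 to 1.67, 2.10 and 1.45 RPKM (-2.60 ± 0.14). Amino acid transport and mTORC1 sensing genes were 15 higher and 5 lower of 23 (median 0.69), with the leucine carrier Slc7a5 at 28.8, 32.5 and 27.2 and then 180.2, 200.04 and 178 RPKM (2.62 ± 0.07). The mTORC1 inhibitors Sesn1 (-1.41), Sesn3 (-0.996) and Gatsl3 (-2.30) fell, and Sesn2 rose (2.16). Nucleotide synthesis rose in 21 of 26 genes and fell in 1 (median 1.30), with Rrm2, of ribonucleotide reductase, at 39.5, 34.6 and 40.6 and 235, 229.6 and 216 RPKM (2.54 ± 0.09). In the hypoxia and iron list 15 of 22 rose and 3 fell (median 0.74); after Mt1, Tfrc and Mt2 came Egln3, an oxygen-sensing hydroxylase (3.39 ± 0.324 to 40.0 ± 5.31 RPKM, 3.22), and the iron exporter Slc40a1 (-1.28) and ferritin heavy chain Fth1 (-0.78) fell.

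Against this background some abundant genes held their level. Of genes with at least 50 RPKM in both states, 45 had a 95% interval of the log2 change wholly between -0.2 and 0.2. The narrowest belonged to Ppp2r1a, Pdhb, Csk, Rpl7a, Clta and Ppia, a phosphatase scaffold, a pyruvate dehydrogenase subunit, the kinase that restrains Lck, a ribosomal protein, clathrin light chain A and cyclophilin A. Csk, for example, was at 161, 163 and 153 RPKM without and 161, 159.8 and 158 with stimulation, and Ppia at 1735, 1794 and 1775 and 1797, 1795 and 1705. Under median-ratio scaling Ppp2r1a was called lower, with a change of -0.14, so which genes count as level depends on the scale. The most abundant gene of both states was Eef1a1, the translation elongation factor, at 14134, 14035 and 14372 and then 7978, 8343 and 8123 RPKM (-0.80 ± 0.06). Tmsb4x, which sequesters actin monomers, was among the top 5 at rest, at 9236, 9725 and 9480.3 RPKM, and fell to 1133, 979 and 1101 (-3.15 ± 0.11). After stimulation Rps2, Rplp1, Rplp0 and Rps26 filled the next places, with changes of 0.33, -0.39, -0.25 and -0.22, and calls on these 4 changed between settings.

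To ask which parts of the response depended on genotype, the WT change was compared with the KO change in the same limma model. The targeted gene was lower but not absent in the libraries labelled KO: Batf was at 35.3 ± 10.7 RPKM unstimulated and 21.9 ± 4.30 stimulated, against 95.3 ± 6.57 and 129 ± 4.44 in WT. Of the 10124 genes, 466 had a different change (adjusted p under 0.05), 229 more positive and 237 more negative in WT, against 4.62% of all genes tested, and 415 of them also changed in WT. This count rested on single libraries: it was 275, 285 or 221 without unstimulated WT library 1, 2 or 3, 236 without stimulated WT library 2, and 257 or 198 without stimulated KO library 2 or 3. All 6 KO libraries lacked Y-linked RNA, as did only the WT libraries numbered 3. The count was 158 without those and 23 when they were the only WT libraries kept, with 1 library a side and the KO libraries giving the spread. With a term for Y-linked transcripts in the model it was 430. That term left the estimated changes as they were, because Y-linked status was the same in both states. It therefore cannot show whether the response differs by sex.

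Differences were ranked among genes also called in WT, with a mean of at least 10 RPKM in a WT group. The largest of these toward WT were those of Il17a, Emp1, Ctla4, Mt3 and Il17f. Il17a reached 13.8 ± 3.43 RPKM in stimulated WT and 1.49 ± 0.421 in stimulated KO cells, a difference in log2 change of 2.46 ± 0.22 (adjusted p = 7.81e-05). Il17f behaved alike (1.89 ± 0.26). Ctla4 rose in WT by 0.64 and fell in KO to 51.0 ± 4.24 RPKM, a difference of 2.02 ± 0.21. Emp1, a membrane protein gene, rose 8.36 times in WT and was at 0.942 ± 0.357 and then 1.18 ± 0.401 RPKM in KO (2.29 ± 0.28), and Mt3 differed by 1.92 ± 0.28.

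In the other direction the limit of 10 RPKM left out Cebpa (-1.74), whose mean in unstimulated WT cells was 4.32 RPKM. Among the largest differences ranked in that direction, some genes began at unequal levels. Itgb1, the beta-1 integrin chain, fell in WT from 126, 108 and 127 to 37.7, 42.8 and 46.4 RPKM, whereas in KO it went from 22.1 ± 1.94 to 39.2 ± 0.690, so the stimulated levels were close (-2.30 ± 0.13, adjusted p = 8.97e-07). Nrp1 likewise began at 17.9 ± 2.02 RPKM in KO (-1.94 ± 0.15). Serpina3g began at 44.4 ± 1.10 RPKM in WT and 44.1 ± 4.53 in KO, and fell in WT to 26.8 ± 2.73 but reached 112 ± 3.41 RPKM in KO (-2.04 ± 0.12). Its paralog Serpina3f (-1.69), with reads that may be shared, and the chemokine gene Ccl1 (-1.62) rose further in KO. Among the 42 lists the highest shares of members called in this comparison were 6 of 15 for granzymes and serpins, 10 of 30 for effector and tissue Treg genes and 9 of 33 for cytokines, against 4.62% over all genes tested. The call on Il17a was lost under limma-voom (1.01), that on Emp1 with the WT libraries numbered 3 as the only ones kept, those on Il17f and Mt3 under both (Mt3 also with a pseudocount of 0.1), and that on Ccl1 in 8 settings, among them without unstimulated WT library 2 or 3, stimulated WT library 2 or stimulated KO library 1 or 3 (-1.64 to -1.43).

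**Figure D4:**
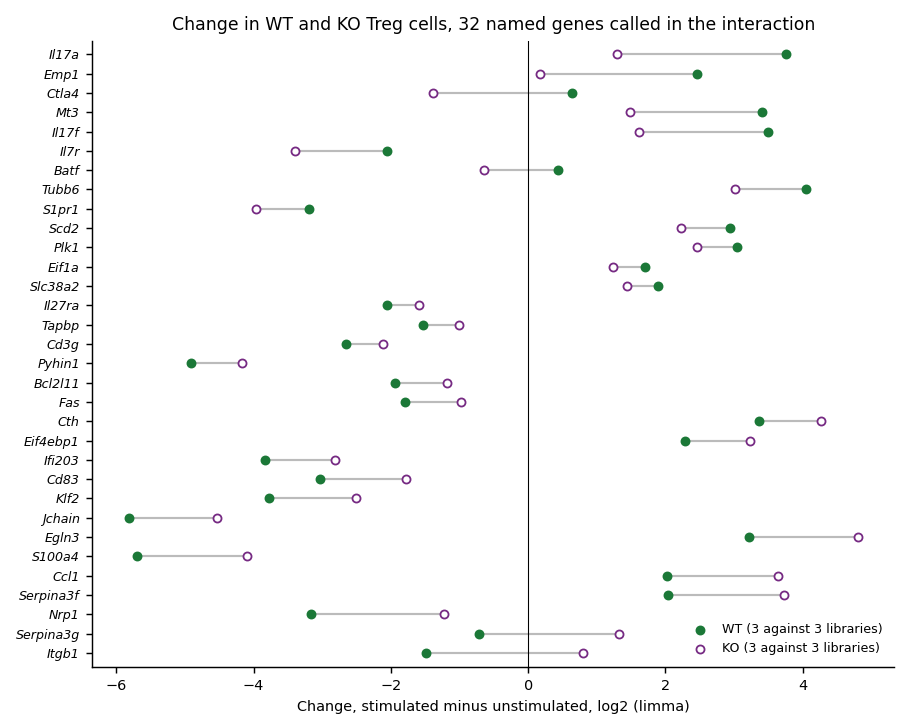
Log2 change after 48 h in WT (filled green) and KO (open purple) cells for the 32 named genes whose changes differed (limma, adjusted p under 0.05), ordered by the difference. Ctla4, Batf, Serpina3g and Itgb1 lie on opposite sides of 0 in the genotypes. Differences run from -2.30 for Itgb1 to 2.46 for Il17a.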

How the data were processed

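RNA was extracted from sorted Treg cells and 600 ng per sample made into stranded poly(A) libraries, per the labels' protocols. The submitters' processing notes name FastQC, STAR, featureCounts of Subread, DESeq2 and mm10, without versions or settings. The authors deposited RPKM per gene, which is what was used here, and 27 entries whose symbols had become dates were left out. Reads per library were worked out from RPKM and exon length.

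With limma 3.58.1 in R 4.3.3, log2(RPKM + 1) was fitted with 1 mean for each of the 4 groups of 3 libraries and a mean-variance trend, leaving 8 residual degrees of freedom. The 10406 genes with at least 1 RPKM in 3 of 12 libraries were tested, 2-sided, with Benjamini-Hochberg adjustment. The test was run on the deposited RPKM, and limma-voom on the reads worked out from them served only as an alternative setting. The fit was also run on simulated data in which few genes changed, a setting unlike these data.

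Genes to report were taken by rule, some with values by library and others with means or the log2 change alone. The 12 largest rises and falls came from called genes reaching 10 RPKM with no overlap between states. Left out were predicted, unnamed, microRNA and small nucleolar genes and receptor segments. Further genes were up to 4 members of each list, the 6 with the narrowest intervals around 0 and the 5 most abundant of each state. The 5 largest WT against KO differences in each direction were taken with the same exclusions. They came from genes called in WT and in the difference, with a mean of at least 10 RPKM in a WT group. Other list members named were chosen after their values were seen. The genes and lists were chosen with earlier results of these data known. Alternatives were other scalings, pseudocounts, filters, limma-voom, a replicate block, a Y-linked term and leaving out libraries. Some members of the lists are not reported here by name.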

Additional observations from a re-analysis of the deposited data

Results flagged for a closer look

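Of the named genes, 32 changed differently in WT and KO cells by the test of the difference itself (limma, adjusted p under 0.05). Values here are the WT log2 change minus the KO log2 change. More positive in WT were Ctla4 (2.02), Il17a (2.46), Emp1 (2.29), Mt3 (1.92), Il17f (1.89), Il7r (1.35), Batf (1.08), Tubb6 (1.04), S1pr1 (0.77), Scd2 (0.71), Plk1 (0.59), Eif1a (0.46) and Slc38a2 (0.45). More negative in WT were Itgb1 (-2.30), Serpina3g (-2.04), Nrp1 (-1.94), Serpina3f (-1.69), Ccl1 (-1.62), S100a4 (-1.59), Egln3 (-1.59), Jchain (-1.29), Klf2 (-1.28), Cd83 (-1.26), Ifi203 (-1.01), Eif4ebp1 (-0.95), Cth (-0.89), Fas (-0.81), Bcl2l11 (-0.76), Pyhin1 (-0.74), Cd3g (-0.55), Tapbp (-0.53) and Il27ra (-0.48).

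Il7r and S1pr1, which fell with stimulation in WT, are on the positive side because they fell further in KO cells. Il17a, Il17f, Mt3, Emp1 and Scd2 rose in WT by more than in KO cells. Tubb6 did so on the log2(RPKM + 1) scale only, on which unequal low levels at rest can make like ratios differ. It went from 0.674 to 26.5 RPKM in WT and from 0.233 to 8.94 in KO. Its difference was 0.46 with a pseudocount of 0.1 and 0.21 under limma-voom, and was called in neither. Serpina3f, Ccl1, Cth, Egln3 and Eif4ebp1 rose in both genotypes, and by less in WT. The remaining negative values, apart from those of Itgb1 and Serpina3g, are of genes that fell further in WT. Some of these began at unequal levels and ended low in both genotypes. S100a4 went from 260 to 4.11 RPKM in WT and from 58.3 to 2.47 in KO. Jchain went from 78.7 to 0.388 in WT and from 29.5 to 0.323 in KO. Klf2, in contrast, began higher in KO (153 against 115 RPKM) and ended higher there (26.0 against 7.51). The call held in every one of the 22 alternative settings for Ctla4, Itgb1, Nrp1, S100a4, Serpina3f and Serpina3g, and was lost in at least 1 for the other named genes.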

How the results depend on the processing

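In WT cells 4563 genes rose and 3590 fell. Over the 24 alternative settings no named gene that was called changed direction, and every count of WT rises and falls stayed within 1.5 times its value. Some genes not called turned sign, among them Csk, Clta, Pdhb and Rpl7a under median-ratio and TMM scaling (Csk 0.01 to -0.12 and -0.05). Leaving out 1 library at a time gave 4395 to 4609 higher and 3407 to 3619 lower, with 1781 to 1826 and 1413 to 1467 past 1 on the log2 scale. Median-ratio scaling gave 4094 higher and 4022 lower, TMM scaling 4340 and 3789, limma-voom on reads 4556 and 3606, a pseudocount of 0.1 4559 and 3577, and no filter 4467 and 3490. With at least 5 RPKM required, 7704 genes remained, 3762 higher and 2674 lower. Without the WT libraries numbered 3 the counts were 4324 and 3361, and with only those 3634 and 2784.

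The numbers of unstimulated and stimulated WT libraries were not taken as pairs: same-numbered libraries correlated at 0.073, 0.164 and 0.142 in their deviations, although each correlated best with its own number. With a replicate block by genotype and number the counts were 4576 and 3612, and 499 for the WT against KO difference. On the 6 WT libraries alone they were 4573 and 3606 without and 4583 and 3602 with the block.

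The count of genes that differed between WT and KO was the least stable, 466 in all, 295 without the filter on low values, 158 without the WT libraries numbered 3, 23 without those numbered 1 and 2, and 198 to 555 with 1 library left out. The cause was not tested. Median list changes turned sign for JAK, STAT and SOCS (0.08 to -0.04) and oxidative phosphorylation (0.08 to -0.05) under median-ratio scaling, and for lineage transcription factors (-0.11 to 0.06) and stromal and epithelial markers (0.66 over 3 genes to -0.86 over 2) with at least 5 RPKM. Depth limits the low genes: with 3 libraries a group, changes close to 0 and genes near 1 RPKM carry the least weight.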
